A study of Arabidopsis thaliana with 3 samples.

Results

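The plant cell wall is built from cellulose, from hemicelluloses such as xyloglucan, mannan and xylan, and from pectin, and 42 genes that make or modify these polymers were examined in the quiescent center (QC) of the Arabidopsis root. They were chosen by symbol alone, as genes named TBL, XTH, GAUT, FLA, AGP, PME, COBL, IRX, GATL, CESA, GAE or FUT with a number, or CSLA to CSLG with a number. Expansins were not included. Each of the 42 genes had its own probe set, out of 22810 probe sets on the array and 13513 that named a single gene. RefSeq lists 218 genes with such symbols, so the 42 are a minor part of these families. They were 22 TBL, 9 XTH, 4 CSLC, 2 CSLA and 2 IRX genes and 1 each of CSLD, GAUT and PME. Genes of the FLA, AGP, COBL, GATL, CESA, GAE, FUT and remaining CSL families were not analysed here.

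The samples were 3 preparations of GFP-positive protoplasts sorted from roots of Col-0 plants carrying WOX5:GFP, 5 days after stratification. WOX5 is a homeobox gene expressed in the QC, so the sort takes cells in which its promoter drives GFP. RNA from each preparation was amplified and hybridised to an ATH1 array of its own. All 3 arrays form a single QC group, no other cell type or treatment was available for a contrast, and the labels do not say whether the preparations came from separate plants. The p-values therefore rest only on the spread between these preparations, which may be technical. In the reported test this spread was taken from a trend over all genes, not from each gene's own values.

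Plant cells cannot move past each other, and growth depends on how the wall around each cell is laid down and loosened. Xyloglucan and xylan chains are made in the Golgi, decorated there with side sugars and acetyl groups, and exported. XTH enzymes then cut and rejoin xyloglucan in the wall itself. Proteins of the TBL family (TRICHOME BIREFRINGENCE-LIKE) include the Golgi enzymes that add acetyl groups to hemicelluloses, and acetylation alters how such chains interact. The QC lies at the centre of the root stem cell niche and consists of a few cells that seldom divide. Protoplasts are cells whose walls have been digested away, and a response of wall genes to digestion cannot be told apart from their level in intact QC cells here.

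With no contrast between groups, each gene was set against a background level measured on the same array. To obtain this level, the 90th percentile of log2 signal was taken over 6 genes of pollen, tapetum and shoot or flower meristem (ANX1, ANX2, MGH3, AT5G07230, AMS and CLV3). It lay at log2 4.56, 5.49 and 5.61 on replicates 1 to 3. AMS was the brightest of the 6 on every array and largely set the level. Without AMS the level was 3.37, 4.99 and 4.44, and the median of all genes moved from 0.62 to 1.58 log2 over it, a shift that every gene shares. Values below are either MAS5 signals, a linear intensity, or log2 over background, the log2 signal minus that level. Because the level differed between arrays, the ± of a log2 over background also holds the spread of the level, which all genes share. Each ± is the SD over the 3 arrays. Signal also depends on how well a probe set binds its target, so values do not order genes by transcript amount, and a low value is no proof that a transcript is missing. Fewer cells of a type and less RNA per cell cannot be told apart in such samples.

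The limma test, at an adjusted p under 0.05, placed 25 of the 42 cell wall genes (59.5%) above the background level and 7 (16.7%) below it, and 10 genes passed in neither direction and are given as not called. Among all 13350 genes tested, 45.3% lay above and 25.6% lay below. With the 989 pseudogenes left out of that count, 48.8% of genes lay above and 21.5% below. The counts above and below both depended on the level and on single arrays. When replicate 2 was left out, 17 of the 42 genes lay above, beside 38.2% of all genes, so the 2 shares were then close. Without AMS only 2 of the 42 genes lay below, beside 11.7% of all genes, and without replicate 3 the count was 4, beside 16.7% of all genes. The median of the cell wall genes was 1.98, 1.09 and 1.08 log2 over background on replicates 1 to 3, against 1.25, 0.48 and 0.30 for all genes. On every array the median cell wall gene thus had more signal than the median gene, by 0.61 to 0.78 log2. The gap was smaller with pseudogenes left out, when the median gene lay at 1.55, 0.73 and 0.57 log2 over background on replicates 1 to 3. Of the families, 13 of 22 TBL genes and 6 of 7 CSL genes lay above background. The share of XTH genes above, 4 of 9 or 44.4%, was near that of all genes. The 25 genes above background exceeded the level on all 3 arrays, as did 1 gene that was not called (XTH26), and these 26 were 61.9% of the 42 genes, beside 50.7% of all genes. Another 10 of the 42 genes did not exceed the level on any of the 3 arrays, nor did 4424 of the 13350 genes tested.

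**Figure D1:**
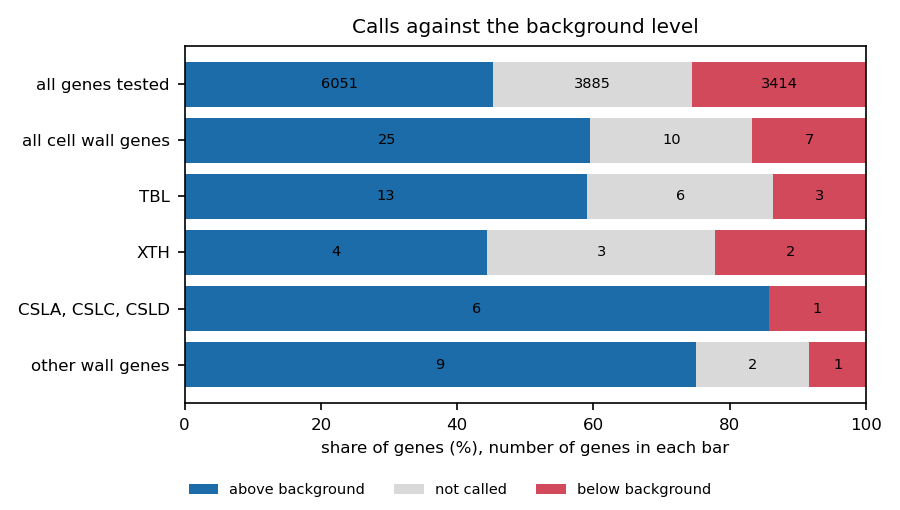
Each bar divides the genes of a set by their call against the background level (limma, adjusted p under 0.05), with the share of genes in percent on the x axis and the number of genes written in each bar. Above background lay 25 of 42 cell wall genes, 13 of 22 TBL, 4 of 9 XTH and 6 of 7 CSL genes, beside 9 of 12 other wall genes and 6051 of 13350 genes in all.

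All 4 CSLC genes, which encode the enzymes that make the glucan backbone of xyloglucan, lay above background, beside 45.3% of all genes. CSLC04 (AT3G28180) had signals of 300.2, 291 and 244 on replicates 1 to 3, and CSLC6 (AT3G07330) had 224, 309 and 245. Both stood clear of the background level on every array, CSLC04 at 2.90 ± 0.70 log2 over background (n = 3, limma adjusted p = 1.82e-13) and CSLC6 at 2.78 ± 0.46 (limma adjusted p = 1.85e-12). CSLC12 (AT4G07960) had signals of 152, 146 and 169 and lay at 2.06 ± 0.54 (limma adjusted p = 1.17e-06). CSLC5 (AT4G31590) was the least even of the family. Its signal was 134 on replicate 1, 97.1 on replicate 2 and 62.3 on replicate 3, a range of 2.16-fold, and it lay at 1.32 ± 1.10 log2 over background (limma adjusted p = 0.00624). On replicate 3 it was only 0.35 log2 above the level. Its call ended without replicate 1 (0.73 log2, limma adjusted p = 0.0578), without replicate 2 (1.43 log2, limma adjusted p = 0.112), without a variance trend and with the level raised by 1 log2, and its adjusted p ran from 2.94e-15 to 0.520 over all alternatives. The gene of the same family that the annotation names ATCSLC08, and which the symbol rule therefore left out, had signals of 29.1, 19.5 and 24.4 and was not called (-0.63 ± 0.82, limma adjusted p = 0.414).

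**Figure D2:**
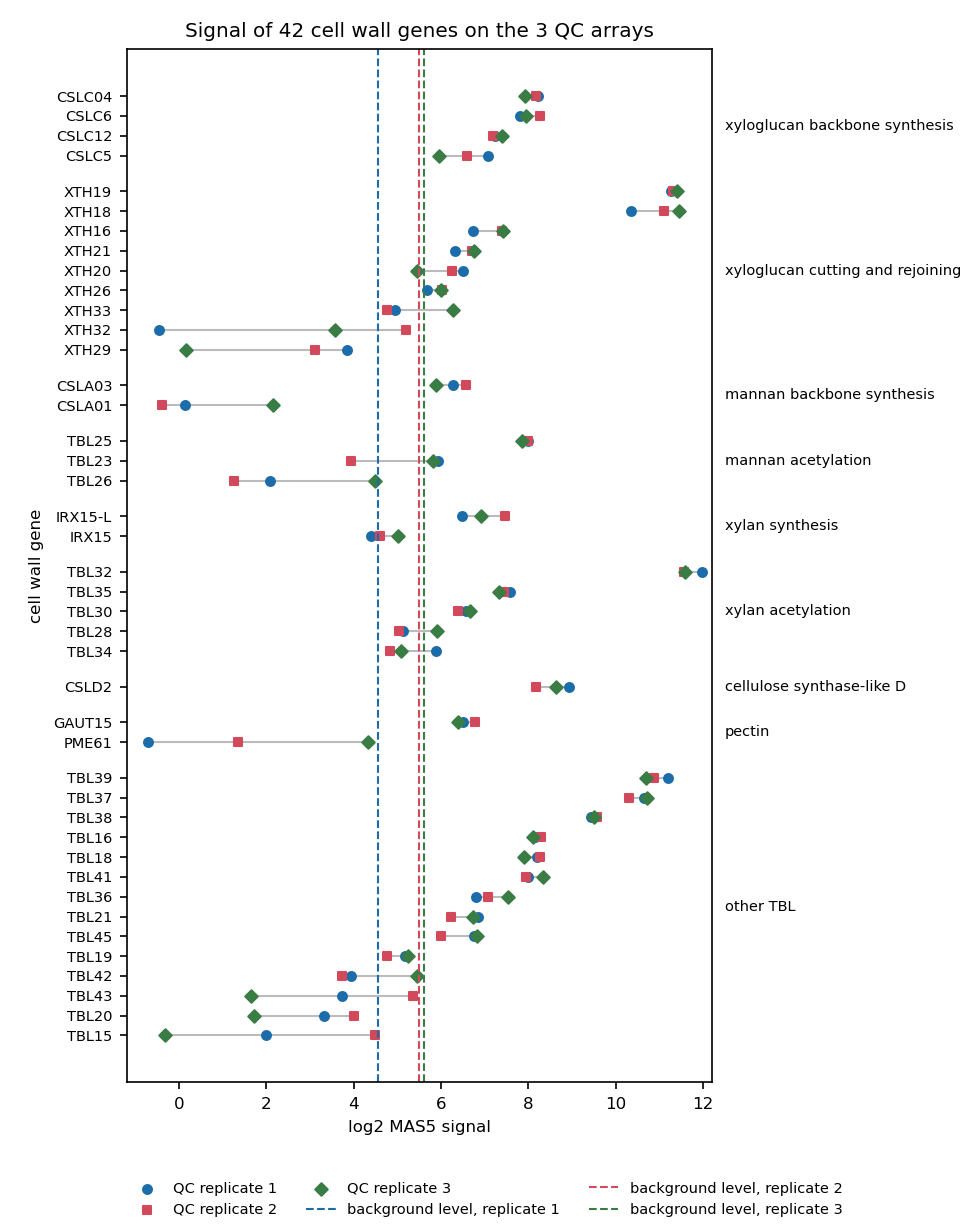
Log2 MAS5 signal of the 42 cell wall genes on the 3 QC arrays, grouped by known role, with the grey line joining the lowest and highest array of each gene and dashed lines at the background level of each array. TBL32, XTH19, XTH18, TBL39 and TBL37 lay above log2 10 on all arrays, XTH18 with a range of 1.11 log2, while PME61, XTH32, TBL15 and CSLA01 lay below the level of the same array on each array, and the first 3 of these scattered over more than 4 log2.

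Among the XTH genes, whose products cut xyloglucan chains in the wall and rejoin the ends, a pair of neighbouring genes on chromosome 4 had the highest values over background of the 9 measured. XTH19 (AT4G30290) had signals of 2463, 2550 and 2708 on replicates 1 to 3, which differed by no more than 1.10-fold. XTH18 (AT4G30280), the adjacent gene, had 1295, 2189 and 2790. Its signal was lowest on replicate 1, as was the background level, so that it lay at 5.74 ± 0.12 log2 over background (n = 3, limma adjusted p = 4.07e-28) although the SD of its own log2 signal was 0.57. XTH19 lay at 6.11 ± 0.52 (limma adjusted p = 8.41e-28). By mean log2 signal these genes stood at percentiles 98.7 and 97.8 of all genes. XTH20 (AT5G48070), which belongs to the same root-expressed group of XTH genes as XTH18 and XTH19, was not called. It had signals of 91.1, 76.1 and 43.6, over the level on replicates 1 and 2 and under it on replicate 3, and lay at 0.85 ± 1.06 (limma adjusted p = 0.115). It was called above under 5 of 14 alternatives, those with a background at the panel's 75th percentile, from bacterial controls, from pseudogenes, without AMS or at 1 common level, and its adjusted p ran from 1.50e-07 to 0.790 over all of them.

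XTH16 (AT3G23730) and XTH21 (AT2G18800), which is needed for normal root growth, also lay above background. XTH16 had signals of 107, 170 and 170 and lay at 1.96 ± 0.20 log2 over background (n = 3, limma adjusted p = 4.76e-06). XTH21 had 79.4, 104 and 109 and lay at 1.37 ± 0.33 (limma adjusted p = 0.00420). Both were lowest on replicate 1. The call of XTH21 ended without replicate 2 (1.45 log2, limma adjusted p = 0.105) and without replicate 3 (1.48 log2, limma adjusted p = 0.0524), with a range of 2.61e-16 to 0.453 over all alternatives. XTH26, which is expressed in root hairs, stayed a little over the level on all arrays with signals of 51.1, 65.1 and 63.7, and was not called (0.68 ± 0.39, limma adjusted p = 0.230), though it was called above under the same 5 alternatives as XTH20 (8.95e-06 to 0.632 over all 14). XTH33, whose protein carries a membrane anchor unlike most of the family, was not called either, with signals of 30.9, 27.3 and 77.9 (0.12 ± 0.73, limma adjusted p = 0.866).

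XTH32 (AT2G36870) and XTH29 (AT4G18990) lay below background. XTH32 belongs to the branch of the family with hydrolase-like members, which cut xyloglucan without rejoining it. It had signals of 0.727, 36.7 and 11.8, a range of 50.5-fold, and lay at -2.45 ± 2.39 log2 (SD, n = 3, limma adjusted p = 0.0162). XTH29 had signals of 14.3, 8.60 and 1.12 and lay at -2.85 ± 2.40 (limma adjusted p = 0.00733). In each case a single array was far lower than the others, replicate 1 for XTH32 and replicate 3 for XTH29. Without that array the calls ended, at -1.17 log2 for XTH32 (limma adjusted p = 0.222) and -1.55 for XTH29 (limma adjusted p = 0.204), and over all alternatives the adjusted p ran from 0.000632 to 0.222 for XTH32 and from 0.000265 to 0.204 for XTH29. Neither was called either when the level was taken at the panel's 75th percentile, from bacterial controls or without AMS. By contrast EXGT-A3, an XTH gene (XTH27) that the symbol rule left out, had signals of 1168, 1140 and 1131, within 1.03-fold, and lay at 4.94 ± 0.60 (limma adjusted p = 8.57e-28).

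Genes of mannan synthesis were divided. CSLA genes encode the synthases of the mannan backbone, and CSLA01 (AT4G16590) had the lowest value of all 42 genes over background. Its signals were 1.10, 0.758 and 4.43, and it lay at -4.59 ± 1.22 log2 (SD, n = 3, limma adjusted p = 0.000105). CSLA03 (AT1G23480) had signals of 77.6, 94.4 and 58.9 and lay above background at 1.02 ± 0.73 (limma adjusted p = 0.0482), close to the threshold. This call ended when any single replicate was left out (0.67, 0.99 and 1.40 log2 without replicates 1, 2 and 3, limma adjusted p = 0.0919, 0.299 and 0.0709), with the level raised by 1 log2, at the panel's 95th percentile and when no variance trend was used, with a range of 8.13e-10 to 0.973 over all alternatives. TBL23, TBL25 and TBL26 encode acetyltransferases of mannan, and each received a different call. TBL25 (AT1G01430) had even signals of 254, 252 and 233, within 1.09-fold, and lay at 2.72 ± 0.62 (limma adjusted p = 6.41e-12). TBL23 had signals of 60.8, 15.3 and 56.7, over the level on replicates 1 and 3 and under it on replicate 2, and was not called (0.01 ± 1.47, limma adjusted p = 0.992). TBL26 (AT4G01080) had 4.26, 2.39 and 22.5 and lay below background at -2.61 ± 1.56 (limma adjusted p = 0.0120). Without replicate 2 it lay at -1.80 log2 and was not called (limma adjusted p = 0.161, with 0.000455 to 0.161 over all alternatives), nor was it called with the lower levels that ended the calls of XTH32 and XTH29.

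Xylan is known mainly from the thick secondary walls of xylem and fibres, where IRX15 and IRX15-L, a pair of similar proteins, are needed for normal xylan chains. IRX15 (AT3G50220) had signals of 20.9, 24.4 and 32.4, under the level on every array, and was not called (-0.55 ± 0.36 log2, SD, n = 3, limma adjusted p = 0.473). IRX15-L (AT5G67210) had 89.6, 177 and 121, over the level on every array, and lay above background at 1.74 ± 0.38 (limma adjusted p = 0.000101). Its call ended without replicate 2 (1.61 log2, limma adjusted p = 0.0669), and over all alternatives the adjusted p ran from 3.03e-26 to 0.103. Leaving out replicate 2 ended 8 calls above background among the cell wall genes. Of all genes 38.2% then lay above, beside 45.3% with all arrays. GUT2 (IRX10), a xylan synthase gene left out by the symbol rule, had signals of 78.7, 98.8 and 113 and lay at 1.36 ± 0.33 (limma adjusted p = 0.00461). None of the 6 xylem and secondary wall markers that were looked up (IRX1, IRX3, IRX5, VND7, XCP1 and XCP2) was measured by a probe set with a single gene, so xylem cells among those sorted were not tested for.

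Of the 5 TBL genes of the group that acetylates xylan, 3 lay above background and none below, beside 45.3% and 25.6% of all genes. TBL32 (AT3G11030) had the highest value of all 42 genes, with signals of 4054, 3009 and 3059 and 6.49 ± 0.81 log2 over background (n = 3, limma adjusted p = 9.08e-27), at percentile 99.3 of all genes by mean log2 signal. Its probe set is the only one of the 42 whose name marks that it can match several transcripts, so the signal may not be from TBL32 alone. TBL35 (AT5G01620) had signals of 193, 173 and 162 and lay at 2.23 ± 0.70 (limma adjusted p = 6.38e-08). The neighbouring genes TBL28 and TBL30 received different calls. TBL30 (AT2G40160) had signals of 94.9, 83.2 and 102 and lay above background at 1.32 ± 0.60 (limma adjusted p = 0.00649). TBL28 (AT2G40150) had 35.0, 33.0 and 60.0 and was not called (0.14 ± 0.53, limma adjusted p = 0.836), and neither was TBL34, with 59.4, 28.3 and 33.6 (0.04 ± 1.12, limma adjusted p = 0.953). The difference between the neighbours was not tested, since their probe sets differ. The call of TBL30 ended without replicate 2 (1.53 log2, limma adjusted p = 0.0845) and without replicate 3 (1.45 log2, limma adjusted p = 0.0588), with 3.71e-15 to 0.527 over all alternatives.

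The TBL genes with no substrate given here numbered 14, of which 9 lay above background, 2 below and 3 were not called. Of all genes, 45.3% lay above and 25.6% below. TBL39 (AT2G42570) had signals of 2339, 1877 and 1663 and lay at 5.70 ± 0.82 log2 over background (n = 3, limma adjusted p = 4.07e-28). TBL37 (AT2G34070) had 1611, 1257 and 1687 and lay at 5.34 ± 0.67 (limma adjusted p = 4.07e-28), and TBL38 (AT1G29050) had 695, 762 and 726 and lay at 4.29 ± 0.53 (limma adjusted p = 5.56e-25). These genes and TBL32, XTH18 and XTH19 were the 6 cell wall genes in the top 10% of all genes by mean log2 signal. TBL16, TBL18 and TBL41 lay between 2.87 and 2.97 log2 over background, with signals of 238 to 324 on all arrays, and TBL36 lay at 1.92 ± 0.33. TBL21 and TBL45 were nearer the level, at 1.38 ± 0.80 (limma adjusted p = 0.00404) and 1.30 ± 0.84 (limma adjusted p = 0.00747), and both had their lowest signal on replicate 2, 74.7 for TBL21 and 64.2 for TBL45. Without replicate 2 their values were higher, at 1.70 and 1.69 log2, but neither was called (limma adjusted p = 0.0525 and 0.0532). The calls thus did not end through a lower value. TBL45 was also not called at the panel's 95th percentile or without replicate 3 (1.35 log2, limma adjusted p = 0.0829). Without replicate 1 the call of TBL45 held, at 0.86 log2. The limma adjusted p over all alternatives ran from 2.05e-16 to 0.447 for TBL21 and from 8.97e-15 to 0.553 for TBL45. TBL19, the neighbour of TBL21 on chromosome 5, was not called (-0.16 ± 0.69, limma adjusted p = 0.824).

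At the low end of the same family, TBL15 (AT2G37720) had signals of 3.95, 22.4 and 0.794 and lay below background at -3.18 ± 2.53 log2 (SD, n = 3, limma adjusted p = 0.00369). TBL20 (AT3G02440) had 9.91, 16 and 3.27 and lay at -2.21 ± 1.47 (limma adjusted p = 0.0256). Both were lowest on replicate 3, and without it neither was called, at -1.79 log2 for TBL15 (limma adjusted p = 0.149) and -1.37 for TBL20 (limma adjusted p = 0.257). TBL20 was also not called without replicate 2 (-2.58 log2, limma adjusted p = 0.0571) or with the 3 lower levels, and TBL15 was not called without AMS in the panel (-2.22 log2). Over all alternatives the adjusted p ran from 0.000125 to 0.149 for TBL15 and from 0.00105 to 0.257 for TBL20. TBL42 (-0.84 ± 0.83) and TBL43 (-1.64 ± 2.04) were under the level on every array but not called (limma adjusted p = 0.295 and 0.0732), like AT2G31110 (TBL40), which the symbol rule left out (-1.27 ± 1.07). TBL43 was called below at the panel's 95th percentile, at the raised level, with the offset of 16 and when no variance trend was used (0.00341 to 0.672 over all alternatives), and TBL42 was called below at the raised level (0.0181 to 0.953).

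CSLD2 (AT5G16910) encodes a glucan synthase of the cellulose synthase superfamily that is needed for normal root hairs and acts in cells growing at their tips. It had signals of 490.2, 290.2 and 396, highest on replicate 1, and lay at 3.36 ± 0.89 log2 over background (n = 3, limma adjusted p = 9.94e-18). Markers of root hairs were also looked up. Of 5 such genes, 3 were measured, with a summed signal of 705 to 748 over the arrays. Above background lay 2 of the 3, beside 45.3% of all genes, so these calls cannot show whether root hair cells were present. The expansin genes EXPA7 (2.65 ± 0.40) and EXPA18 (3.60 ± 0.72), which act in growing root hairs, lay above background, and TRY, a regulator of the pattern of hairs, was not called (-0.05 ± 1.21). The part of root hair cells in the signal of CSLD2 was not tested.

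For pectin, the acidic gel of the wall, 1 gene of synthesis and 1 of modification were measured. GAUT15 (AT3G58790), of the family of galacturonosyltransferases, had signals of 90.8, 110 and 83.8 and lay above background at 1.34 ± 0.59 log2 (SD, n = 3, limma adjusted p = 0.00544). Without replicate 2 it was not called (1.36 log2, limma adjusted p = 0.133, with 1.27e-15 to 0.496 over all alternatives). PME61 (AT3G59010), a pectin methylesterase, removes methyl groups from pectin in the wall. It had signals of 0.609, 2.54 and 20.2, a range of 33.2-fold, and lay below background on every array and in the test (-3.57 ± 2.06, limma adjusted p = 0.00153). Of the pectin methylesterase genes that carry other symbols, AT4G02300 (PME39) lay below background with signals of 0.937, 4.09 and 17.9 (-3.19 ± 1.62, limma adjusted p = 0.00360) and ATPMEPCRB (PME41) was not called with 2.61, 35.4 and 41.7 (-1.25 ± 1.67, limma adjusted p = 0.147). All 3 pectin methylesterase genes had their lowest signal on replicate 1 and their highest on replicate 3, at low signals. Among all 7299 genes not above background, 2810 were lowest on replicate 1 and 33.0% were highest on replicate 3. Whether these 3 genes varied together was not tested.

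Agreement between arrays depended on the level of the gene. Among the 25 cell wall genes above background the median SD of log2 signal was 0.24 and 23 (92.0%) lay within 2-fold on all arrays, beside 0.23 and 93.2% for all 6051 genes above background. The exceptions were XTH18 (2.15-fold) and CSLC5 (2.16-fold), which ran in opposite directions, XTH18 being lowest and CSLC5 highest on replicate 1. IRX15-L (1.98-fold), TBL45 (1.75-fold) and CSLD2 (1.69-fold) had the next widest ranges of the genes above background. Of the 17 other cell wall genes only 4 lay within 2-fold, and their median SD was 1.12 log2, beside 26.5% and 0.98 for all genes not above background. No single array had most of the highest signals. Of the 25 genes above background, 8 were highest on replicate 1, 7 on replicate 2 and 10 on replicate 3, or 32.0%, 28.0% and 40.0%, beside 32.4%, 32.2% and 35.4% of all genes above background.

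**Figure D3:**
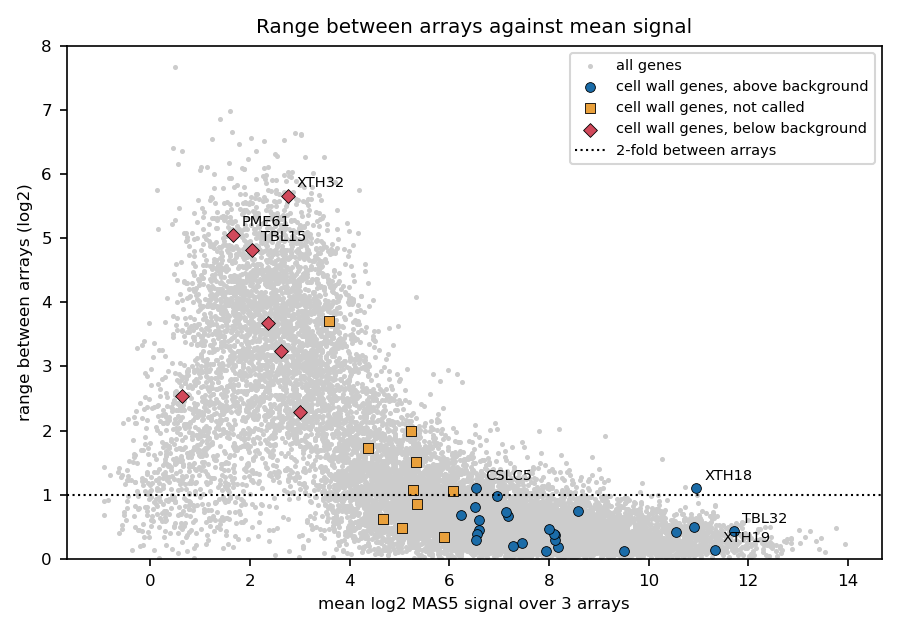
Range between arrays (highest minus lowest log2 signal) against the mean log2 MAS5 signal over the 3 QC arrays, with each of 13356 genes as a grey point and the 42 cell wall genes coloured by call. XTH32 (5.66 log2), PME61 (5.05) and TBL15 (4.82) had the widest ranges, all at low signal, while 23 of the 25 genes above background lay under the dotted line at a 2-fold range.

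Wall genes outside the symbol rule were examined from lists made by function. Of 230 entries, 12 were measured, and 9 of these lay above background, 1 below and 2 were not called. Over all genes 45.3% lay above and 25.6% below. All 3 measured partners of cellulose synthesis and wall sensing lay above background. COB, a membrane-anchored protein that orients cellulose deposition, had signals of 803, 920.1 and 1048 and lay at 4.62 ± 0.41 log2 over background (n = 3, limma adjusted p = 9.72e-27). The receptor kinases FER and THE1, which sense the state of the wall, lay at 5.63 ± 0.67 (limma adjusted p = 4.07e-28) and 4.54 ± 0.63 (limma adjusted p = 2.22e-26). Both measured genes of nucleotide sugar supply were also above, USP, which makes UDP-sugars from sugar phosphates, at 3.43 ± 0.81 (limma adjusted p = 2.66e-18) and GER2, of GDP-fucose synthesis, at 3.96 ± 0.49 (limma adjusted p = 8.95e-23). Of the 4 measured genes that glycosylate arabinogalactan proteins, AT5G39990 (GLCAT14A), AT5G15050 (GLCAT14B) and AT2G37585 (GLCAT14C) lay above, between 1.53 and 3.10, and AT1G08280 (GALT29A) was not called (0.81 ± 0.95). ADPG1, a polygalacturonase that cuts pectin when organs split open or are shed, had signals of 2.12, 2.11 and 1.13 and lay below background (-4.44 ± 0.98, limma adjusted p = 0.000163). Of 2 peroxidase genes of lignin formation, AT5G66390 (PRX72) lay above background at 5.71 ± 0.45 and PRX52 was not called (-0.85 ± 0.71). Lists of xyloglucan side chains, xylan synthesis, pectin synthesis, callose and extensins had no measured member.

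Markers were looked up beside the label of the samples. Since 45.3% of all genes lay above background, such a call cannot check the label. Of 9 QC and stem cell niche genes looked up, 3 were measured, with a summed signal of 609, 691 and 823 on replicates 1 to 3. All lay above background, BBM at 3.77 ± 0.38 log2 (SD, n = 3), JKD at 1.57 ± 0.64 and AGL42 at 1.14 ± 0.27. WOX5 itself was not analysed here. Of 30 markers of other root cell types 9 were measured and 5 lay above background, beside 45.3% of all genes. Above lay the root hair genes EXPA7 and EXPA18 and the phloem gene OPS (2.09 ± 0.48 log2, SD, n = 3). LBD16 of lateral root founder cells (2.37 ± 0.60) and ACR4, listed for columella and root cap (1.91 ± 0.83), did so too. CLE40 of the same list, LBD29, TRY and the non-hair epidermis gene ATMYC1 were not called. The part of other root cells in the signal of the cell wall genes was not tested. On replicate 2 the 18 bacterial and phage spike-in probe sets had a median of 2.13 times their mean on the other arrays, and the median signal of all probe sets was 76.9, 81.4 and 81.3. All precision is limited by the number of arrays.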

How the data were processed

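GFP-positive protoplasts from WOX5:GFP roots were profiled on 3 ATH1 arrays with amplified, biotin-labelled RNA. The authors deposited MAS5 signals, which are intensity values on a linear scale, 1 per probe set. MAS5 corrects each array on its own. Its version, its settings and its detection calls were not given in the sources used here. Each array had a mean of 250 after leaving out 2% of values at each end, so a change in total RNA cannot be seen. No 2 arrays shared a value (0 identical values per pair), and 0 columns were left unused.

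The deposited intensity was taken to log2 without adding an offset. Gene names came from the platform annotation and were updated through RefSeq (TAIR10.1, names and gene order only). Of 22810 probe sets, 13513 named 1 gene (13436 matched RefSeq), 503 named several, 64 were controls and 8730 named none in the annotation used. A gene's value was the mean over its probe sets, which gave 13356 genes. Each gene's log2 signal minus the background level was tested against 0 in limma 3.58.1 under R 4.3.3 (intercept model, eBayes with trend, two-sided, Benjamini-Hochberg over 13350 genes, adjusted p under 0.05), without the 6 background genes. Since limma estimated infinite prior degrees of freedom, the trend alone set the spread of each gene. The p-values therefore do not hold an error of the level that all arrays share, and the smallest show only distance from the level. The test was checked on simulated data. Noise was drawn there for each gene and array on its own, so the check could not show an error of the level that all genes share.

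The cell wall genes, lists, tests and alternatives were chosen with earlier results of these data known. The rule for named genes took the 2 highest and 2 lowest of each family, all of families of 4 or fewer, the 5 widest ranges above background and genes of known role. The other cell wall genes (TBL16, TBL18, TBL19, TBL20, TBL21, TBL23, TBL25, TBL28, TBL30, TBL34 to TBL38, TBL41 to TBL43, XTH16, XTH21, XTH26 and XTH33), and the genes of the same families under other symbols, were named after their values were seen, to account for each gene. The alternatives took other percentiles of the background genes (75 and 95), backgrounds from 27 bacterial control probe sets, from pseudogenes and without AMS, 1 common level, a level raised by 1 log2, quantile normalization, an offset of 16, no variance trend, no probe sets of several transcripts and leaving out each replicate.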

Additional observations from a re-analysis of the deposited data

How the results depend on the processing

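Of the 25 cell wall genes above background, 17 kept that call under every alternative in which they could be tested, and these lay at 1.92 log2 over background or more. The other 8 lay between 1.02 and 1.74, and all of them lost it without replicate 2 and with the level raised by 1 log2. Of the 7 below background, CSLA01 and PME61 kept their call under every alternative. The number of cell wall genes above ranged from 17 (level raised by 1 log2) to 31 (bacterial controls), within 1.5 times of 25, and from 17 to 23 leaving out 1 replicate. All genes followed the same settings, from 4602 (34.5%) to 7605 (57.0%) above, and from 5103 (38.2%) to 6015 (45.1%) leaving out 1 replicate. The number below moved to 3 at the panel's 75th percentile, 3 with bacterial controls and 2 without AMS, and ranged from 4 to 6 leaving out 1 replicate. For all genes the number below moved from 3414 to 1636, 1713 and 1560 in these settings and to 5217 at the raised level. With 1 replicate left out it lay between 2226 and 2623. The share of called cell wall genes that lay above was 78.1%, against 90%, 91.2% and 93.1% in the 3 settings with a lower level and 63.0% at the raised level. The same share over all genes moved alike, from 63.9% to 80.6%, 81.6%, 81.5% and 46.9%.

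Over the 42 genes and these alternatives, 492 values kept their side of the threshold and direction, 45 lost a call and 20 gained one. XTH20 and XTH26 gained 5 each and TBL43 gained 4. TBL23, TBL28, TBL34 and XTH33 were called above with bacterial controls, and IRX15 and TBL42 were called below at the raised level. Only genes not called in the reported test turned direction, in 30 cases, and 0 of them passed the test (limma). At the raised level, values in log2 over background were -0.15 for XTH20, -0.32 for XTH26, -0.86 for TBL28, -0.89 for XTH33, -0.96 for TBL34 and -0.99 for TBL23. At the 95th percentile they were -0.27 for TBL28, -0.30 for XTH33, -0.37 for TBL34 and -0.40 for TBL23. Leaving out 1 replicate gave -0.076 to 0.43 for TBL28, -0.16 to 0.53 for XTH33, -0.60 to 0.40 for TBL34, -0.67 to 0.79 for TBL23 and -0.55 to 0.12 for TBL19. With the offset of 16, TBL34 was at -0.028 and TBL23 at -0.003, and quantile normalization put TBL23 at -0.034. At the 75th percentile, with bacterial controls and without AMS, TBL19 lay at 0.74, 0.84 and 0.79, IRX15 at 0.35, 0.45 and 0.40, and TBL42 at 0.061, 0.15 and 0.11, and the pseudogene background put TBL19 at 0.25. The causes were not tested. No paired analysis was possible because all arrays belong to 1 group. The range between arrays of each of the 42 genes moved by less than its SD under quantile normalization.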
